A study of Mus with 15 samples.

Results

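Monoubiquitinated histone H2A (H2AK119ub, called H2Aub) was mapped by ChIPmentation, an antibody pull-down of sheared chromatin with Tn5 tagging of the bead-bound DNA, in the thalamus of wild-type mice that had received only saline. The resting landscape is described here as the stretches of genome that lay inside a peak in all 3 peak lists of that group. There were 3494 such stretches, against 33137 separate regions covered in any list of the group and 157230 regions covered in any of the 11 H2Aub lists of the series. A protein-coding gene was called marked when its body plus 5 kb on each side overlapped at least 1 stretch, which held for 1361 of 21887 genes, or 6.22%. That share rested on the number of lists and their thresholds: it was 7.22%, 10.3% and 9.44% without replicate 1, 2 or 3, 12.8% for bases in at least 2 of the 3 lists and 2.34% with q of at most 0.01.

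The series compared cocaine with saline in WT and Maged1 cKO mice, and no treatment or genotype is compared here. The 3 WT saline libraries came from mice with the genotype label Maged1 Loxp, the floxed controls without the Vglut2-Cre that deletes Maged1 in the cKO, aged 2 to 4 months. The animals were given saline for 3 days and then saline again on the 5 days on which the other arm received cocaine. Thalami of several mice were pooled for each library, so a replicate is a pool, and the tissue is bulk: the mark in fewer cells and less of the mark per cell cannot be told apart. The lists hold peak positions, fold enrichment over an input library and q values but no read counts, so the depth behind each list is unknown here, and nothing in a peak list can check the tissue label.

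H2Aub is written by Polycomb repressive complex 1 (PRC1), whose RING1 and RNF2 subunits are the ubiquitin ligases. It is removed by deubiquitinases such as BAP1. The mark is best known for covering CpG-rich promoters and whole gene clusters of developmental regulators that a differentiated cell does not use, usually together with the H3K27 methylation laid down by PRC2, and it has also been found at lower density elsewhere in the genome.

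The 3 lists differed in size before any gene was considered. They held 23748, 8955 and 12114 peaks in replicates 1, 2 and 3, covering 11.1, 5.55 and 8.41 Mb with median peak widths of 242, 296 and 356 bp. Bases covered in all 3 lists made up 26.1% of the covered bases of replicate 1, 52.2% of replicate 2 and 34.5% of replicate 3, so the smallest list limited what could be shared. Peaks that held a shared stretch numbered 2565 (10.8%), 3023 (33.8%) and 2536 (20.9%). Their median widths of 1118, 729 and 978.5 bp compare with 214, 205.5 and 287 bp for the peaks that held none. Fold enrichment separated them much less: the medians were 3.85, 4.15 and 3.76 with a stretch and 3.45, 3.85 and 3.48 without one.

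Agreement between the lists rose with peak width. Of the peaks under 200 bp, 1.31%, 9.96% and 4.18% held a base covered in all 3 lists. From 200 bp to under 1000 bp the shares were 8.73%, 34.5% and 16.4%, and from 1 to 5 kb they were 73.2%, 93.8% and 71.5%. Every peak of 5 kb or more held one, 218 of 218 in replicate 1, 125 of 125 in replicate 2 and 213 of 213 in replicate 3. A wide peak has more bases on which an overlap can fall, so part of this order is built into the measure.

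**Figure D1:**
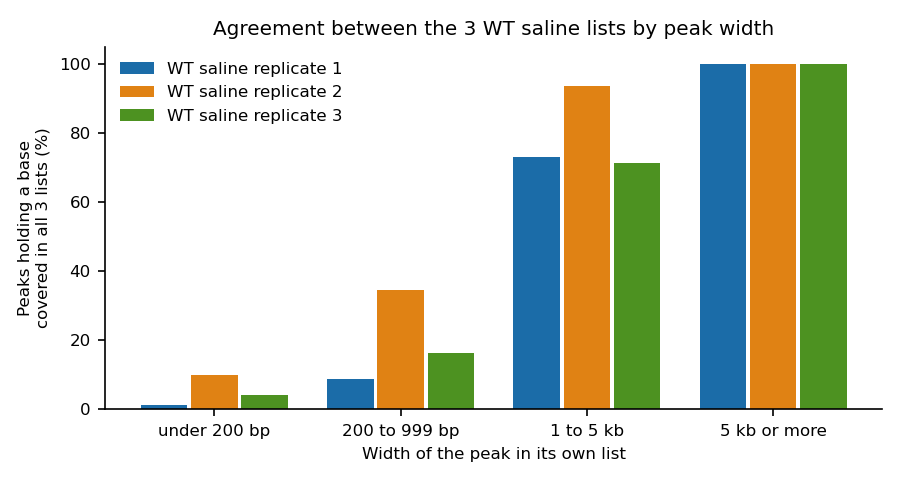
Share of peaks (y axis, %) in each WT saline list that hold at least 1 base covered in all 3 lists, by the width of the peak in its own list (x axis); 1 bar per replicate. The bars stand at 1.31% to 9.96% for peaks under 200 bp and at 100% for peaks of 5 kb or more in each list.

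The shared stretches summed to 2.90 Mb. Most were short: the median was 353.5 bp, the quartiles were 157 and 891.75 bp, and the longest, over the homeobox gene Lbx1 (chr19:45221679-45238348, mm10), was 16670 bp. The 73 stretches of 5 kb or more were 2.09% of the number and 19.1% of the length, while the 1120 stretches under 200 bp were 32.1% of the number and 4.02% of the length. Broad peak calling and the intersection of 3 lists leave gaps inside a marked region, so stretches no more than 3 kb apart were also joined. This gave 1614 domains spanning 4.65 Mb with a median of 619.5 bp and quartiles of 171.25 and 2796.75 bp. The 256 domains of 5 kb or more were 15.9% of the domains and held 71.2% of the joined length.

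**Figure D2:**
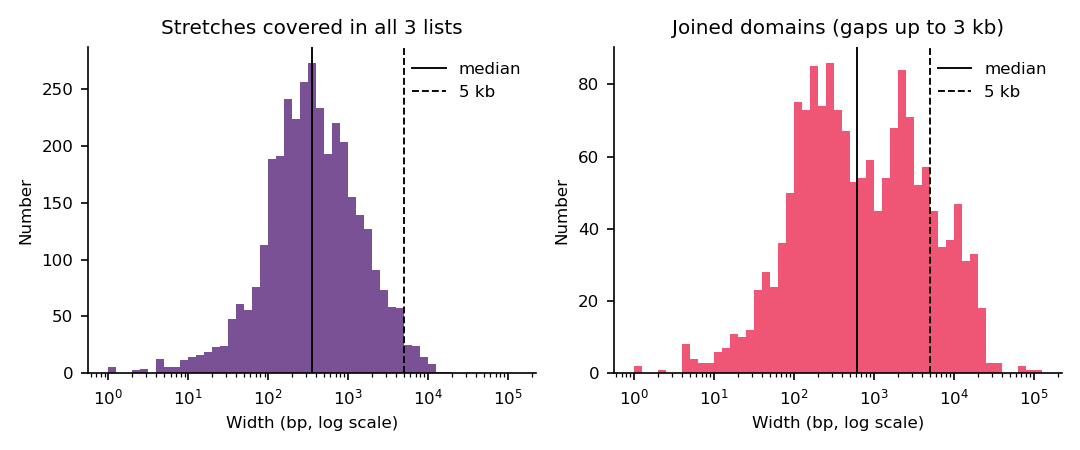
Widths of the 3494 stretches covered in all 3 WT saline lists (left) and of the 1614 domains made by joining stretches up to 3 kb apart (right), in bp on a log axis, with the number in each bin on the y axis. Solid lines mark the medians (353.5 and 619.5 bp) and dashed lines mark 5 kb; 73 stretches and 256 domains reach it.

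The wide stretches came back in the other libraries of the series far more often than the narrow ones. All 73 stretches of 5 kb or more, and 93.6% of those from 1000 to 4999 bp, overlapped a peak in each of the 8 H2Aub lists outside the group. The same was true of 641 of the 1601 stretches from 200 bp to under 1000 bp and of 6.79% of those under 200 bp. Over all widths, 1445 stretches (41.4%) were touched in all 8 lists and 31 in none. The 8 lists cover very different amounts of the genome, 4.24 to 27.6 Mb, and they touched 57.5% to 93.0% of the stretches. Wide stretches again have more bases to touch.

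Relative to genes, 2009 stretches (57.5%, carrying 67.2% of the length) overlapped the body of a protein-coding gene and 824 (23.6%) lay only in the 5 kb flanks of one. A further 360 (10.3%) lay near noncoding genes or pseudogenes alone, and 301 (8.61%), with a median of 277 bp, had no annotated gene within 5 kb. The longest of these gene-distant stretches, at 4832 bp, lay 9103 bp from Nkx2-3, and the next lay 43176 bp from Ostm1 (4084 bp), 12058 bp from Hoxa13 (3949 bp), 6611 bp from Uncx (3557 bp) and 22845 bp from Vax1 (3076 bp). All 5 overlapped a peak in each of the 8 other lists, and 4 of the 5 had a marked homeobox gene as nearest coding gene, Ostm1 being the exception with 0 shared bases.

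A marked gene carried a median of 548 shared bp in its window, with quartiles of 202 and 1862 bp. The 1361 marked genes had a median length of 17815 bp against 17133 bp for the unmarked ones, and the share marked was 5.52%, 6.69%, 5.17% and 7.49% from the shortest to the longest of 4 equal groups of genes, so length sorted the genes little. Stretches over the gene body marked 1093 genes (4.99% of all), and 268 were marked in the flank only. The 203 genes with a stretch within 1 kb of both ends were short, at a median of 4231 bp, whereas 685 had one within 1 kb of a single end and 473 at neither. In 137 genes the stretches covered at least 50% of the body, and in 33 at least 90%. Neighbouring genes can share bases: for 338 marked genes (24.8%) every shared base also lay in the window of another marked gene, and 170 of these had no stretch over their own body. A peak in each list is a looser call than a shared base. It held for 2280 genes (10.4%), of which 919 (40.3%) had no base covered in all 3 lists.

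Developmental transcription factors, the proteins that set cell fate along the body and brain axes, made up most of the widely marked genes. Of 332 such genes in the 19 listed families, 238 (71.7%) were marked. They were 1.52% of coding genes but 17.5% of the marked ones, and 140 of the 186 genes (0.85% of all) with 5000 or more shared bp. The share of developmental transcription factors was 0.458% among unmarked genes, 3.64% among genes with 1 to 199 shared bp, 4.25% from 200 bp to under 1000 bp, 20.7% from 1000 to 4999 bp and 75.3% at 5000 bp or more. The median member held 2895 shared bp. Across 13 alternative settings the marked share of these families lay between 60.2% and 80.1%, above that of all coding genes under the same setting each time.

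**Figure D3:**
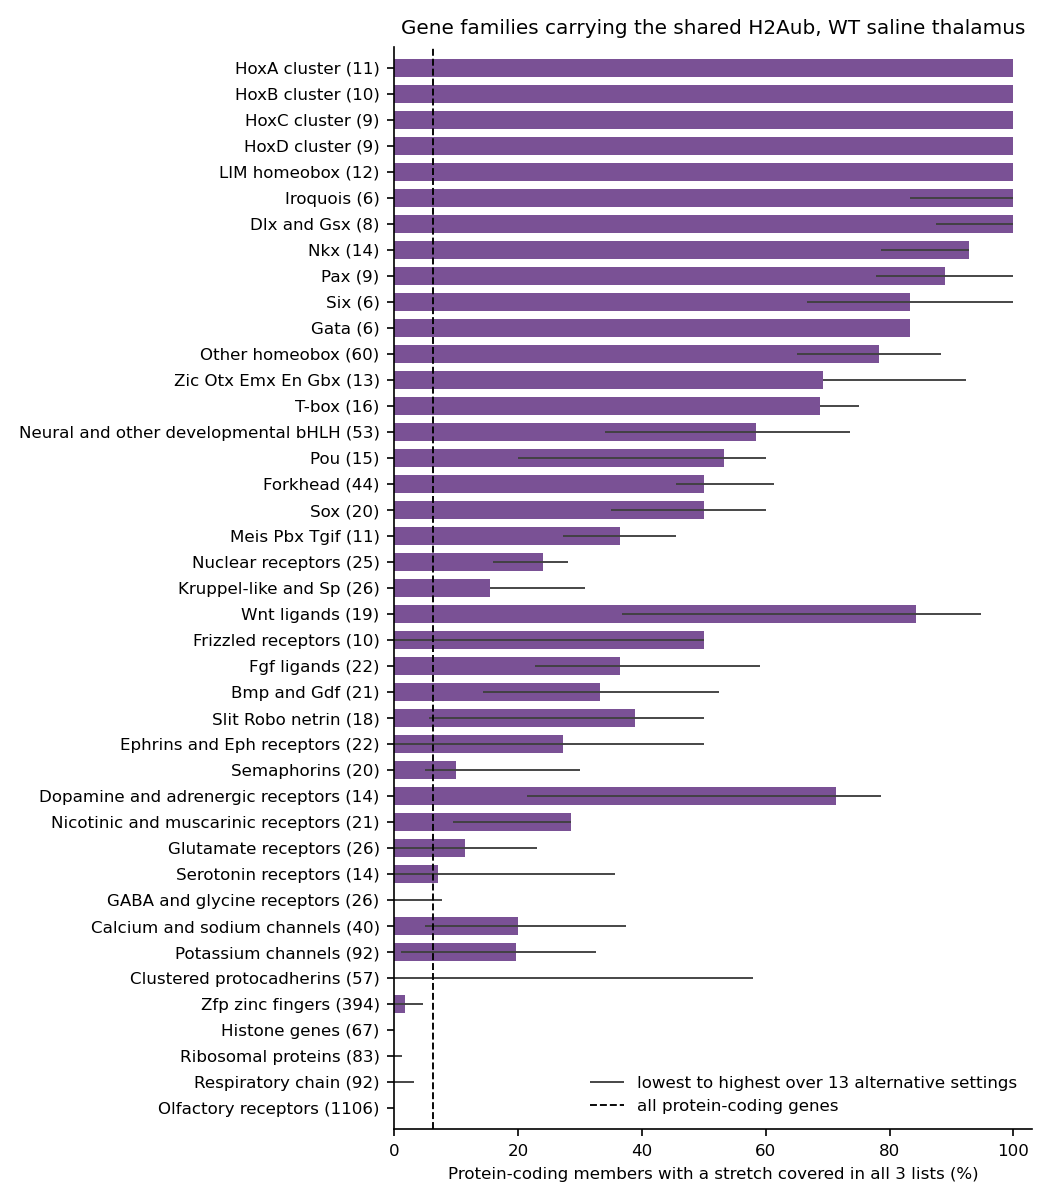
Share of the protein-coding members of 41 gene families (y axis, number of members in brackets) with a stretch covered in all 3 WT saline lists (x axis, %). Thin lines run from the lowest to the highest share over 13 alternative settings and the dashed line marks all protein-coding genes, 6.22%; the 4 Hox clusters stand at 100% and olfactory receptors at 0%.

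All 39 Hox genes, which give positional identity along the trunk and are not used in the forebrain, were marked. The 4 longest domains of the genome were the Hox clusters. The HoxA domain reached as far as Hoxa11 (chr6:52152515-52255071, 102557 bp), and 92023, 78232 and 95742 bp of it lay in peaks of replicates 1, 2 and 3, with 72458 bp (70.7%) in all 3. The HoxB domain, from Hoxb9 to Hoxb2 (chr11:96260348-96354930, 94583 bp), had 85634, 72241 and 80533 bp in the 3 lists. Replicate 2 covered the least of both domains and all 3 lists covered most of each. HoxD was split at a gap of over 3 kb inside Hoxd3 into a 69145 bp domain, which also holds the neighbouring homeobox gene Evx2, and a 33826 bp domain, and HoxC spanned 68957 bp. Edges of a cluster could be marked less than its centre: Hoxb1 had 1461 shared bp (4939, 2127 and 4804 bp in the lists) and Hoxd1 had 2032 bp, whereas Hoxa13 and Hoxb13, at the other end of their clusters, had 8525 and 7443 bp.

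**Figure D4:**
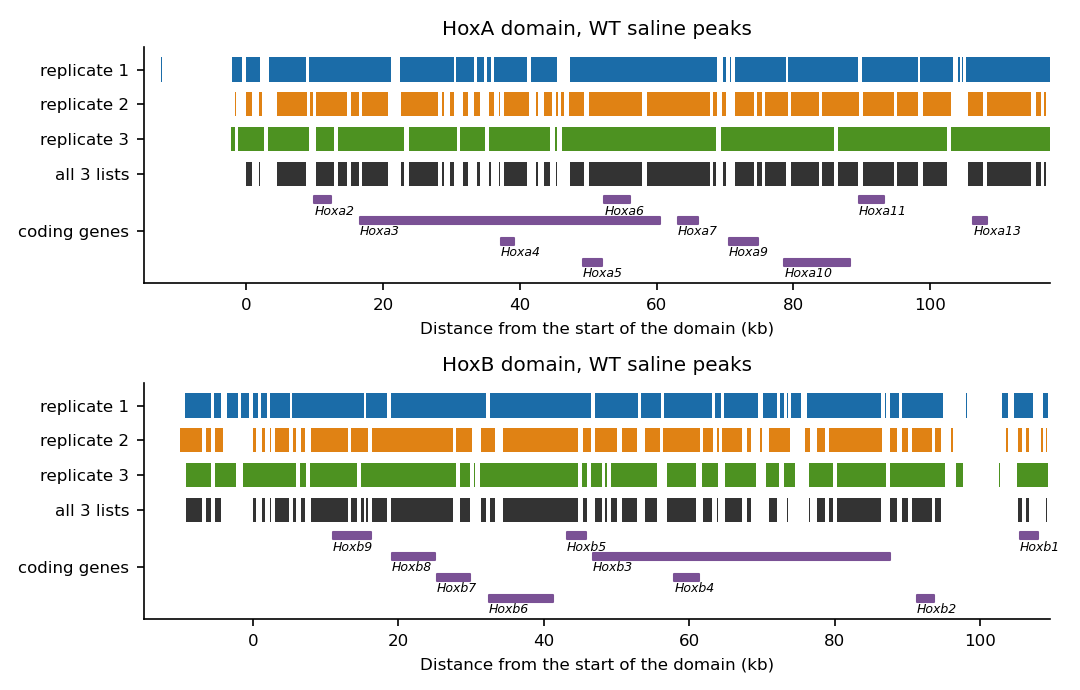
Peaks of the 3 WT saline lists and the stretches covered in all 3 (rows) over the HoxA domain (top) and the HoxB domain (bottom), as distance from the start of the domain in kb (x axis), with the bodies of the protein-coding genes reported here below. Stretches covered in all 3 lists fill 70.7% of the 102557 bp HoxA domain and 66.2% of the 94583 bp HoxB domain.

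By gene, Hoxa3 held the most shared bases, 36186 bp, with 48550, 39764 and 50205 bp in replicates 1, 2 and 3. Hoxb3 followed with 30055 bp (44486, 36903 and 40300 bp) and Hoxd3 with 24777 bp (36205, 29609 and 40331 bp). These 3 have the longest annotated bodies of their clusters and overlap their neighbours, so their bases are in part also those of the genes beside them. Outside the clusters, Gata4, a heart and endoderm factor, had 20355 bp (29802, 22479 and 32367 bp), and Pax2, a kidney and midbrain-hindbrain factor, had 19282 bp (27646, 23799 and 23827 bp). Tbx5, which directs forelimb and heart development, had 17421 bp (31737, 23556 and 27142 bp). Each of the 20 leading genes was a transcription factor or, for Skor1, a transcriptional corepressor, and each had a peak in all 8 other lists. Such a peak in all 8 was also held by 81.6% of all marked genes and by 8.1% of all coding genes.

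**Figure D5:**
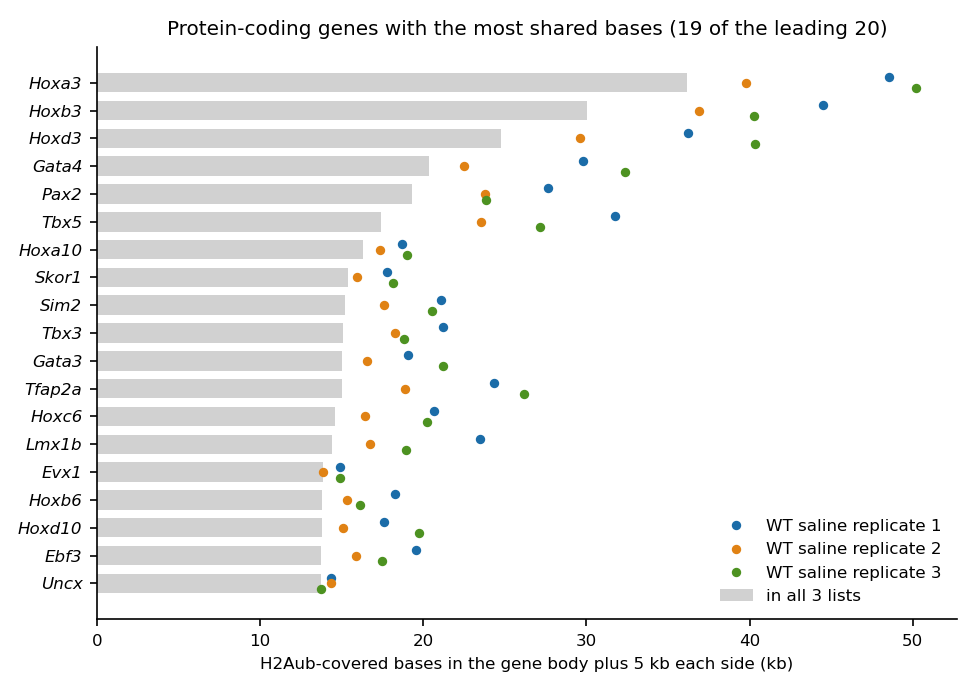
H2Aub-covered bases in the gene body plus 5 kb each side (x axis, kb) for 19 of the 20 protein-coding genes with the most bases covered in all 3 WT saline lists (grey bars); points are the 3 replicates. Hoxa3 leads with 36186 shared bp and Uncx is the last of the 20 with 13741 bp.

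The share of the body covered did not follow the number of bases. Skor1, which is active in dorsal spinal cord neurons, was covered over 100% of its body (15404 shared bp in the window), as were Evx1 (13837 bp), Uncx (13741 bp), Dlx1 (11927 bp) and Dlx2 (10912 bp). Pax2 was covered over 17.3% of its body, Lmx1b over 13.6% and Ebf3 over 9.91%, although their windows held 19282, 14403 and 13756 bp. Short genes could also be covered in part, such as Hoxd13 over 55.1% of its body and Hoxd10 over 46.2%.

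Other homeobox families were marked nearly throughout. Every LIM homeobox gene (12 of 12), Iroquois gene (6 of 6) and Dlx or Gsx gene (8 of 8) had a stretch, as did 13 of 14 Nkx and 8 of 9 Pax genes, and all but Six5 of the 6 sine oculis-type homeobox genes. Over the 171 genes counted as homeobox genes the marked share was 83.0%, and 97 of them had 5000 or more shared bp. That count covered listed families only and left out the Pax genes and the Zic, Otx, Emx, En and Gbx genes. Nkx2-1, which specifies ventral forebrain and thyroid, had 9176 shared bp (12590, 9848 and 12998 bp). Nkx6-3 and Pax4 were the only unmarked members of their families. Among the patterning genes En1 (10946 bp), En2 (10778 bp), Emx2 (9962 bp) and Otx1 (7955 bp) were marked, whereas Zic1, Zic4 and Zic5 were not.

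Beyond homeobox genes, 5 of 6 Gata genes (all but Gata1) and 11 of 16 T-box genes were marked, with medians over all members of 10865 and 5259 shared bp. Smaller shares were seen for basic helix-loop-helix factors (31 of 53), Pou (8 of 15), forkhead (22 of 44) and Sox genes (10 of 20). Sox14, a marker of some GABAergic neurons of the visual thalamus and midbrain, led the Sox genes with 8522 bp (9646, 9308 and 10306 bp), and Sox10 to Sox13 had none. Foxd3, a neural crest factor, led the forkhead genes with 11116 bp (11961, 11660 and 11829 bp). TALE homeobox genes were mostly unmarked (4 of 11 marked), with Meis2 at 10519 bp and Pbx2 and Pbx3 at 0.

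Other transcription factor families were counted in the same way. Of 26 Kruppel-like and Sp genes 4 (15.4%) were marked, all of them Sp genes: Sp9 (9740 bp) and Sp8 (5155 bp), which act in forebrain interneurons and limb buds, Sp6 (2206 bp) and Sp5 (2094 bp). Nuclear receptors were marked in 6 of 25 cases (24.0%), led by Nr2e1, a factor of neural progenitors (8561 bp), and Nr5a2 (7879 bp). Both shares were above that of all coding genes, 6.22%, under each of the 13 settings. Of 394 genes named Zfp 7 (1.78%) were marked and none had over 506 shared bp, a share below that of all coding genes under each of the 13 settings.

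Of the 186 genes with 5000 or more shared bp, 46 were outside the listed developmental families. The lists do not hold every developmental factor, so the 140 of 186 given above counts listed members only. Named after their values were seen, the 46 include the transcriptional regulators Sim2 (15177 bp), Sim1 (13462 bp), Tfap2a (14988 bp), Ebf3 (13756 bp) and Dmrta2 (11596 bp). They also include Runx3 (11139 bp), Wt1 (10680 bp), Prdm8 (9492 bp) and Onecut1 (8050 bp). Others encode no transcription factor. Cdkn2a, the locus of the cell cycle inhibitors p16 and p19 and a classical Polycomb target, had 9941 shared bp (17482, 11387 and 16801 bp), and Ccnd2, a D-type cyclin, had 5239 bp (7272, 6795 and 5509 bp). Of the fetal RNA-binding proteins, Igf2bp3 had 5141 bp and Igf2bp1 5106 bp. Gene windows also pulled in neighbours: Ttc6 had 7689 bp, all within the window of Foxa1.

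Ligands and receptors of developmental signalling were marked more often than all coding genes (6.22%) but narrowly. Wnt ligands had a stretch in 16 of 19 genes (all but Wnt2, Wnt4 and Wnt8a) and hedgehog ligands in 3 of 3. Frizzled receptors (5 of 10), Fgf ligands (8 of 22) and Bmp and Gdf ligands (7 of 21) had it less completely. No member of these 75 genes, 39 of them marked, reached 5000 shared bp, and the marked ones held a median of 869 bp against 6361 bp for marked developmental transcription factors. Gdf6 led with 4460 bp (11775, 6620 and 7131 bp) and Wnt1, which patterns the midbrain, followed with 4200 bp (7574, 4200 and 6846 bp). Shh, the ventral midline signal, had 572 bp (3556, 1147 and 1797 bp). With peaks of q above 0.01 left out the share for the 75 genes was 21.3%, beside 2.34% of all coding genes, and that for frizzled receptors was 0%.

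Axon guidance genes, which steer growing axons, were marked in 15 of 60 cases (25.0%, beside 6.22% of all coding genes). Robo3, a receptor of commissural axons, had 1282 bp (3234, 1604 and 3989 bp), Ephb1 had 1820 bp (5664, 3132 and 3158 bp), and Sema3f was 1 of 2 marked semaphorins among 20, with 1801 bp (5061, 4084 and 3994 bp). Their bodies are long, at a median of 57121 bp, and the median marked member held 549 shared bp. With q of at most 0.01 the marked share was 3.33%, beside 2.34% of all coding genes.

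Ion channel and transmitter receptor genes carried few shared bases each. Ion channels were marked in 26 of 132 cases (19.7%) and transmitter receptors in 20 of 101 (19.8%), beside 6.22% of all coding genes, with 445.5 and 401.5 shared bp in the median marked member and none at 5000 bp. Kcnh3, a forebrain potassium channel, had the most at 3791 bp (5252, 5455 and 4581 bp), and Cacna1g, the T-type calcium channel of thalamic burst firing, had 1711 bp (5832, 2369 and 2962 bp). When only peaks of q at most 0.01 were kept, the ion channel share fell to 2.27% against 2.34% of all coding genes, the only setting in which it was below that of all coding genes.

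Receptor families differed in these counts. Dopamine and adrenergic receptors were marked in 10 of 14 cases and nicotinic and muscarinic ones in 6 of 21, against 3 of 26 glutamate receptors (11.5%), 1 of 14 serotonin receptors (7.14%) and 0 of 26 GABA and glycine receptors, beside 6.22% of all coding genes. Adra2c, an inhibitory adrenergic receptor, had 1406 bp (2624, 3023 and 2262 bp) and Drd4 had 469 bp (2360, 1184 and 1710 bp). Drd1 and Drd3 had none. Among the nicotinic receptors, Chrnd (741 bp) and Chrnb1 (311 bp) had no stretch over the body. All their bases also lay in the windows of other marked genes. The stretches were thin: the dopamine and adrenergic receptors held a median of 134 bp over all members. Their share ranged from 21.4% to 78.6% over the settings, and that of GABA and glycine receptors from 0% to 7.69%.

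Of 24 genes that define transmitter identity 10 were marked (41.7%, and 25.0% to 54.2% over the settings, beside 6.22% of all coding genes), and the 4 with the most shared bases act in inhibitory transmission. Gad1, which makes GABA, had 8731 shared bp (11639, 9224 and 11070 bp), and Slc32a1, the vesicular transporter for GABA and glycine, had 7937 bp (9577, 8295 and 10476 bp). Slc6a5, the glycine transporter of inhibitory neurons, had 5592 bp (7800, 6146 and 9124 bp) and Gad2 had 3142 bp (6646, 4241 and 4468 bp). Replicate 2 covered the least of each of these 4 genes. Slc17a7, the vesicular glutamate transporter Vglut1, had 2272 bp (5376, 3822 and 5649 bp). Slc17a6, the Vglut2 transporter that most thalamic relay neurons use, had 0 shared bp, with 1006 bp in replicate 1, none in replicate 2 and 1023 bp in replicate 3. The cholinergic genes Chat and Slc18a3, which overlap, had 652 bp each.

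Marker lists differed in their counts. Of 14 markers of other forebrain neurons 13 were marked, Neurod6 being the exception, and 9 held 5000 or more shared bp, among them Fezf2 (8941 bp) and Tbr1 (7358 bp), which mark cortical projection neurons. Of 13 markers of thalamic excitatory neurons 5 were marked: Lhx2 (13437 bp), Lhx9 (8187 bp), Gbx2 (5803 bp), Slc17a7 and Lef1 (1331 bp). Tcf7l2, a factor of thalamic relay neurons, had 1077, 0 and 227 bp in the lists and no shared base, and Calb2, Foxp2, Prkcd, Prox1, Rora and Zic1 likewise had none. The oligodendrocyte lineage genes Pdgfra (8583 bp), Olig2 (5393 bp) and Olig1 (370 bp) were marked, and the mature myelin genes Mag, Mbp and Mog were not. Astrocyte (0 of 7) and microglia markers (0 of 5) had no stretch, and 3 of 4 endothelial markers did, Flt1 with 2589 bp, Cldn5 with 535 bp and Kdr with 16 bp. With 6.22% of all coding genes marked, counts of 0 in lists this short say little, and the endothelial share was 25.0% at its lowest over the settings.

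Activity-induced genes were marked in 10 of 20 cases, beside 6.22% of all coding genes, with a median of 244.5 shared bp in the marked ones. Nr4a2 had 4679 bp (11286, 7224 and 9082 bp), Egr3 3029 bp (5135, 3350 and 4351 bp) and Egr2 2377 bp (3963, 3680 and 3713 bp). Fos, by contrast, had 98 shared bp (1036, 170 and 1238 bp), and Arc, Bdnf and Dusp1 had none. Under q of at most 0.01 the share of the list was 20.0% beside 2.34% of all coding genes. Neuropeptide genes were marked in 6 of 30 cases, and their share ran from 10.0% to 46.7% over the settings. Of 24 synaptic vesicle and scaffold genes 2 (8.33%) were marked, led by Shank1 (1300 bp). Avp and Oxt, the adjacent vasopressin and oxytocin genes, shared 1 set of 1519 bp.

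Housekeeping genes were marked in 4 of 291 cases (1.37%). None of 83 ribosomal protein genes, 92 respiratory chain genes, 52 translation initiation factors or 16 glycolysis genes had a stretch, whereas 4 of 48 proteasome genes (8.33%, beside 6.22% of all coding genes, and above that share in 7 of 13 settings) held 144 to 2124 bp. The largest of these, Psmd14, had no stretch over its body, and all its 2124 bp lay in the window of Tbr1. Over the 13 settings 0.344% to 3.44% of the housekeeping genes were marked, below all coding genes each time. Replication-dependent histone genes (0 of 67) had none either.

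Chemosensory receptor genes had no stretch. No olfactory receptor (0 of 1106) or vomeronasal receptor (0 of 353) had a stretch under any of the 13 settings. Keratins (3 of 109, 2.75%) and defensins (1 of 71, 1.41%) had few, beside 6.22% of all coding genes. Clustered protocadherins were marked in 0 of 57 cases, although 19 of the 57 had a peak in each list. With bases covered in at least 2 of the 3 lists 57.9% of them were marked, beside 12.8% of all coding genes. The protocadherin windows overlap one another, so 1 stretch can mark many of them.

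Polycomb genes themselves were marked in a few cases. Of 24 PRC1 genes 6 (25.0%, and 8.33% to 37.5% over the settings, beside 6.22% of all coding genes) were marked, among them Cbx8 (3908 bp, with 6489, 5258 and 5784 bp in the lists), Bmi1 (1694 bp), Cbx2 (675 bp), Pcgf2 (308 bp) and Auts2 (167 bp). Cbx8, Cbx2 and Bmi1 had no stretch over their bodies. All the bases of Cbx2 also lay in the window of its neighbour Cbx8, and all those of Bmi1 in the windows of Gm46725 and Spag6. The ligase genes Ring1 and Rnf2 had no peak in any of the 3 lists. Epop was the only marked gene of 12 PRC2 genes (1773 bp), and no H2A deubiquitinase gene (0 of 11) was marked.

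None of 5 genes that the study singles out had a shared base under the main setting. The marked share of these genes was above that of all coding genes in 4 of the 13 settings and below it in 9. The paper itself kept peaks found in at least 2 replicates, a looser rule than bases covered in all 3 lists. Maged1 and Usp7 had no peak in the 3 lists. Hopx had peaks over 1501, 404 and 1312 bp, Scml4 over 1331, 144 and 858 bp and C1ql3 over 469, 325 and 387 bp of its window, at places that did not coincide in all 3 lists. Other C1q-like genes, which encode secreted synaptic organisers, did share bases: C1ql1 had 3451 bp (5703, 4160 and 5673 bp), C1ql2 1917 bp and C1ql4 1349 bp.

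Height gave another ranking than width. By the lowest over the 3 lists of the highest fold enrichment in the window, the leading gene was Fcgr3, an immunoglobulin receptor, at 6.44, 7.84 and 5.49, but its window holds part of a cluster of marked tRNA genes, and it had 665 shared bp. Next came Pitx1 with 5.78, 5.18 and 5.00 and its neighbour Catsper3 with 5.78, 5.11 and 5.00, then Evx2 (4.99, 5.35 and 5.01), Dlx1, Dlx2 and Metap1d, Hoxd13, and Tbx2 with its neighbour Bcas3. Metap1d, Catsper3 and Bcas3 held only bases that also lay in the windows of Dlx1, Pitx1 and Tbx2. The 20 genes with the most shared bases reached highest folds of 4.28 to 5.58 in the single lists.

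By chromosome, marked genes were most frequent on chromosomes 11 (145 genes, 9.01%), 15 (8.89%), 19 (8.37%) and 2 (8.36%). The X chromosome stood below every autosome with 6 of 966 genes (0.621%) against 6.56% of the autosomal genes, and no Y gene was marked. They included Esx1 (1170 bp), Irs4 (430 bp), Bcor (318 bp), Sox3 (199 bp) and Elf4 (96 bp). In the single lists, 2.69%, 1.55% and 1.55% of X-linked coding genes had a peak against 27.4%, 15.9% and 17.5% of autosomal ones, so the low share was present in each list.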

How the data were processed

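H2Aub was measured by ChIPmentation in 11 libraries of mouse thalamus, of which the 3 WT saline libraries were described and the other 8 served only to count how often a stretch recurred. The authors trimmed paired reads with Cutadapt, aligned them to mm10 with Bowtie2 2.3.4.1, kept alignments of high mapping quality and called broad peaks in each library with MACS2 2.1.1.20160309.3 against an input (TIC) library. The 4 input libraries were not used here. Each deposited list gives peak positions with a display score, the fold enrichment over input as a ratio, and −log10 of the p and of the q value. The deposited lists keep peaks with q up to 0.0987 in this group, and 10.3% to 25.5% of their peaks have q above 0.05. The lists hold no read counts, so the precision that depth gives each value is unknown.

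Positions were read from the lists, overlapping peaks of a list were merged, and bases covered in all 3 lists were intersected with RefSeq genes of GRCm38.p6, the assembly called mm10. That table gives no strand, so gene ends are not told apart as start or end. Interval functions were tested on simulated data (Python 3.11.15, numpy 2.4.6, pandas 2.3.3). Gene families were taken by symbol pattern and 15 lists by name, and histone genes by older symbols among the synonyms. The members and lists were chosen with earlier results of these data known. Genes named are the 20 with the most shared bases, the 10 with the highest fold, up to 4 marked and 4 unmarked members of each list, the genes at the 10 longest domains, those nearest the gene-distant stretches, the study's own 5, and the leading noncoding genes. Any other gene named was chosen after its values were seen. With 1 group there was nothing to test, so values are given for each replicate and no p-value is printed. Alternatives changed the q limit, the number of peaks per list, the number of lists, the lists themselves, the least width, the flank and the joining gap. Values of some genes are not reported here.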

Additional observations from a re-analysis of the deposited data

How the results depend on the processing

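The number and width of the regions depended on the settings. Developmental transcription factors were above and housekeeping genes below the share of all coding genes under each of 13 settings. Against 3494 stretches, there were 1315 with q of at most 0.01, 8174 for bases in at least 2 of the 3 lists, 2031 when overlapping peaks were merged whole, and 4007 to 6073 when 1 list was left out. The length was 5.85 Mb for at least 2 lists, 6.33 Mb for whole peaks and 3.27 to 4.55 Mb without 1 list, and the median width was 1032 bp with q of at most 0.01, 1739 bp for whole peaks and 299 to 355 bp without 1 list. Joined domains numbered 560 (q of at most 0.01), 4195 (at least 2 lists) and 1977 to 3249 (without 1 list), with medians of 2481 bp with q of at most 0.01, 931 bp for equal numbers of peaks, 2090.5 bp for whole peaks and 401 to 523 bp without 1 list, and 440 reached 5 kb for at least 2 lists (273 to 359 without 1 list). Marked coding genes numbered 513 with q of at most 0.01, 2810 for at least 2 lists, and 1580, 2251 and 2067 without replicate 1, 2 or 3. Developmental transcription factors made up 39.0% of the 513 genes and 9.47% of the 2810. No paired analysis was possible because only 1 group was described and no test was made. The cause of these differences was not tested. The lists do not give depth, so what it limits is not known here.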

Other observations

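Noncoding genes carried the mark as well. Of 49943 genes of any kind 2120 (4.24%) were marked, among them 604 of 12727 long noncoding RNA genes (4.75%), 204 of these by a stretch outside every coding window, and 37 of 1228 microRNA genes (3.01%). Among microRNA genes, Gm51264 had the most shared bases, 8913 bp (9621, 8994 and 10064 bp in replicates 1, 2 and 3). In the Hox clusters, Mir196b had 8553 shared bp (9720, 8795 and 10085 bp), Mir10a 6760 bp and Mir10b 5210 bp. Outside them, Mir183 and Mir96, neighbours that act in sensory hair cells, had 3087 and 2901 bp. Hoxaas3, antisense within the HoxA cluster, led the long noncoding RNA genes with 18344 bp (20505, 19499 and 21120 bp).

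Transfer RNA genes (49 of 408) and ribosomal RNA genes (8 of 63) were marked as well, 38 and 7 of them by stretches outside coding windows. The marked genes lay in a few places, with 18 tRNA genes on chromosome 13, 14 on chromosome 3 and 10 on chromosome 1. A single array on chromosome 8 held 7 of the rRNA genes, and several of these had the same 510 shared bp. Of the 20 peaks of highest fold in each list, 6, 6 and 2 lay within 1 kb of such a gene, including the highest of each list at 9.16, 12.2 and 6.33. These genes have near-identical copies, so their values are uncertain.

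Grouping coding genes by the letters of their symbols gave 659 stems with 5 or more members, 426 of them with no marked member and 24 with at least 50% marked. Outside the lists above, and found after the values were seen, these were Tfap (5 of 6), Nfatc (3 of 5), Prdm (7 of 14) and Plekhg (3 of 6).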
